A study of Homo sapiens with 4 samples.

Results

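*MARCKS*, *MARCKSL1* and *BASP1* are 3 of the 34241 gene identifiers listed in at least 1 of 4 count tables of single A375 cells, a human melanoma cell line that carries an activating *BRAF* mutation. They were chosen by name, as a small protein family, because *MARCKS* was higher in both double-agent-resistant cultures, so the *MARCKS* levels there describe the choice and were not tested. All 3 genes were listed in all 4 tables and averaged at least 10 CPM over the libraries, as did 6510 genes in all. A UMI is a molecular tag that counts 1 captured mRNA molecule, and CPM is the number of UMIs of a gene per 1000000 UMIs of its library.

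The 4 libraries came from untreated, drug-sensitive cells (S), cells resistant to the BRAF inhibitor vemurafenib (RV), and cells resistant to vemurafenib plus a MEK inhibitor, either cobimetinib (RVC) or trametinib (RVT). All resistant cultures had been selected for a short time at doses below the measured inhibitory concentration, and the inhibitors were withdrawn a day before the cells were captured. Each condition is 1 library of 1 line, so no difference between conditions has a replicate check, and all 95% intervals cover counting error only (exact Poisson for levels, exact binomial for shares, exact conditional binomial for ratios). The treatment cannot be told apart from the library or the culture.

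MARCKS (myristoylated alanine-rich C-kinase substrate) and its close homologue MARCKSL1 sit on the inner face of the plasma membrane, where a lipid anchor at the N-terminus and a basic stretch hold the phosphoinositide PIP2 and bind actin. Phosphorylation of serines in that stretch by protein kinase C, or binding of calmodulin, releases the protein from the membrane and frees the PIP2. BASP1 (brain acid soluble protein, also CAP-23) is anchored in the same way and, with the related growth cone protein GAP43, is best known from outgrowing axons and from actin-driven changes of cell shape. A nuclear pool of BASP1 acts as a co-repressor of the transcription factor WT1.

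The features that these proteins share can be read in the coding sequence. The first 10 codons are printed here because they carry the myristoylation signal, with the glycine codon after the start codon in capitals (GENCODE 29 transcripts on GRCh38, 5′ to 3′ in the sense of the gene).
MARCKS, chr6:113857746-113857775, plus strand: atgGGTgcccagttctccaagaccgcagcg
MARCKSL1, chr1:32336004-32336033, minus strand: atgGGCagccagagctccaaggctccccgg
BASP1, chr5:17275217-17275246, plus strand: atgGGAggcaagctcagcaagaagaagaag
All 3 open reading frames had glycine as codon 2.

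The 25 codons with the most lysine and arginine codons in each reading frame are shown next, since they hold the basic stretch that binds PIP2, calmodulin and actin. Serine codons are in capitals.
MARCKS, codons 152 to 176, chr6:113860034-113860108, plus strand: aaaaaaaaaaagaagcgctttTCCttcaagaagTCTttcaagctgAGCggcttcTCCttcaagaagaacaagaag
MARCKSL1, codons 86 to 110, chr1:32334855-32334929, minus strand: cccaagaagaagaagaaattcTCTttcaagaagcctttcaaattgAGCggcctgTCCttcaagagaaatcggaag
BASP1, codons 1 to 25, chr5:17275217-17275291, plus strand: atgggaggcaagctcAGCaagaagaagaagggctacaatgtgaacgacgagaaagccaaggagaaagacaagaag
The window of *MARCKS* held 13 lysine or arginine codons and 4 serine codons, and that of *MARCKSL1* 12 and 3. The most basic window of *BASP1* lay at the very start of the protein, with 10 lysine or arginine codons, 1 serine codon and 4 acidic codons.

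The genes lie on 3 chromosomes of GRCh38: *MARCKS* (ENSG00000277443) at chr6:113857362-113863471 on the plus strand, *MARCKSL1* (ENSG00000175130) at chr1:32333832-32336379 on the minus strand, and *BASP1* (ENSG00000176788) at chr5:17065598-17276843 on the plus strand. Each coding transcript used here had 2 exons, with 999 coding bases of 4275 in *MARCKS*, 588 of 1699 in *MARCKSL1* and 684 of 1878 in *BASP1*. No other annotated gene overlapped *MARCKS* or *MARCKSL1*. Of 6 annotated genes that overlap *BASP1*, 2 lie on its strand and are not rows of the tables, and 2 antisense genes are rows, *BASP1-AS1* with 0 UMIs in all 4 libraries and *AC026790.1* with 1 UMI, in RVT, and the pseudogenes of *MARCKSL1* and *BASP1* were not rows of the tables.

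After filtering, the libraries held 6334 S, 4177 RV, 7620 RVC and 8443 RVT cells, with 58470570, 52329047, 32882082 and 25406351 UMIs. Median UMIs per cell ranged from 2869 in RVT to 11553 in RV. Between 36 and 102 cell barcodes were shared by any 2 libraries. The tables of S and RV listed 33694 genes and those of RVC and RVT listed 33538 genes, so the 2 pairs of libraries were counted on different gene annotations, and treatment with a MEK inhibitor cannot be told apart from that difference. Of 6 melanocyte lineage markers, summed at 96.7, 60.8, 8.06 and 60.5 CPM in S, RV, RVC and RVT, *TYR* was at 0 in all libraries and *SOX10* and *DCT* also in RVC. The sums were mostly *SOX10*, at 86.7, 40.2, 0 and 19.4 CPM, and *MITF*, at 9.73, 20.2, 7.94 and 40.7 CPM. The 6 fibroblast markers summed to 2.57, 2.24, 167 and 42.9 CPM, with *COL1A2* at 0 in all but RVC. Most of the RVC sum was *COL3A1*, at 122 CPM there, 7.32 CPM in RVT and 0 in S and RV. *LUM* was at 22.0 CPM in both RVC and RVT. Of 5 immune cell markers, *PTPRC* and *CD3E* were at 0 throughout, with sums from 0.122 to 0.784 CPM. The part of these differences in the results on the 3 genes was not tested.

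*MARCKS* was low in S and RV and high in both double-agent-resistant libraries. RVT had 248 CPM (242 to 254, 6300 UMIs) and RVC 84.6 CPM (81.5 to 87.8, 2783 UMIs), against 9.42 CPM for RV (8.61 to 10.3, 493 UMIs) and 7.88 CPM for S (7.18 to 8.64, 461 UMIs). RVT was highest and RVC second, while the intervals of RV and S overlapped slightly. Against S, *MARCKS* was 10.7-fold higher in RVC (9.72 to 11.9) and 31.5-fold higher in RVT (28.6 to 34.6), the values for which it was chosen. In RV it was 1.19-fold higher (1.05 to 1.36).

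*BASP1* followed the same order of libraries with a different spacing. RVT had 217 CPM (212 to 223, 5519 UMIs), RVC 18.2 CPM (16.8 to 19.7, 599 UMIs), RV 7.59 CPM (6.86 to 8.37, 397 UMIs) and S 5.13 CPM (4.57 to 5.75, 300 UMIs). No 2 of these intervals overlapped, and RVT stood far above the other libraries. The ratio of RVT to S was 42.3 (37.7 to 47.7), the 17th highest of 6510. For RVC it was 3.55 (3.09 to 4.09), and for RV 1.48 (1.27 to 1.72). Of the 3 genes, *BASP1* had the largest ratio between the MEK inhibitor combinations: RVT was 11.9-fold above RVC (11.0 to 13), the 54th highest ratio of that comparison, whereas *MARCKS* was 2.93-fold higher there (2.80 to 3.06). *BASP1* averaged 10 CPM through RVC and RVT alone, so both ranks are only a backdrop.

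*MARCKSL1* went the other way. S had 155 CPM (152 to 158, 9049 UMIs), RV 145 CPM (142 to 149, 7604 UMIs), RVT 105 CPM (101 to 109, 2676 UMIs) and RVC 44.9 CPM (42.6 to 47.2, 1476 UMIs). S and RV were highest, RVT lay below them, and RVC was lowest. The gene was 3.45-fold lower in RVC than in S (3.26 to 3.65) and 1.47-fold lower in RVT than in S (1.41 to 1.53), and it was 2.35-fold higher in RVT than in RVC (2.20 to 2.50). The second of these ratios depended on the scaling: *MARCKSL1* was 2.10-fold lower in RVT than in S with TMM factors, which scale libraries on the bulk of the genes.

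**Figure D1:**
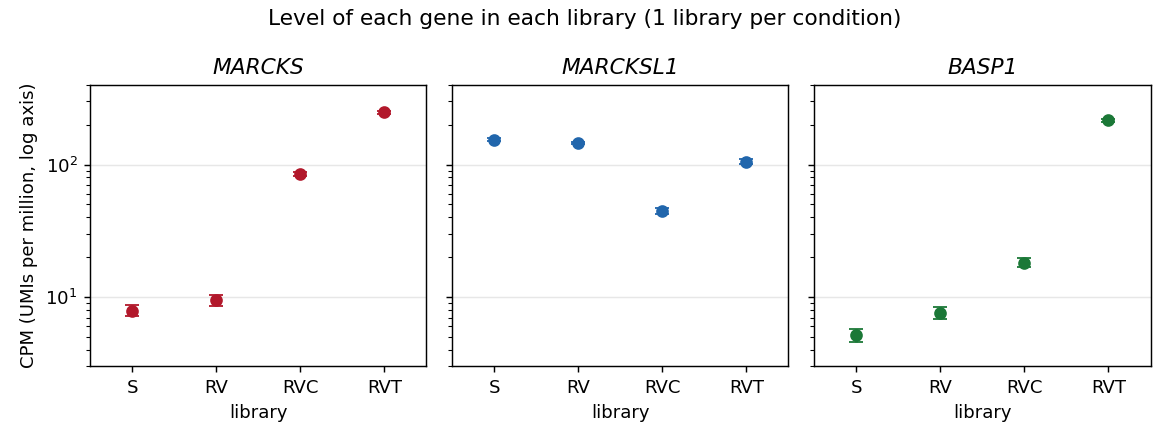
Level of each gene in CPM on a log axis in the 4 libraries, with 1 point per library and bars for the 95% Poisson interval of the count. *MARCKS* and *BASP1* climb from S to RVT, to 248 and 217 CPM, while *MARCKSL1* is lowest in RVC at 44.9 CPM.

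All ratios to S share the same S library. At least 2-fold higher than S were 2 of the 3 genes in RVC, against 22.4% of all genes tested, and 2 of 3 in RVT, against 28.4%. At least 2-fold lower than S was 1 of the 3 in RVC, against 23.3% of all genes, and none in RVT, against 24.3%. In RV none of the 3 was 2-fold higher or lower, where 1.87% and 1.21% of all genes were. All 3 were at least 2-fold higher in RVT than in RVC, against 15.0% of all genes, and *MARCKSL1* fell short of that at 1.90-fold with TMM factors. With TMM factors the shares of all genes higher and lower were 16.2% and 27.1% in RVC, 16.4% and 33.5% in RVT, and 8.33% and 18.0% in RVT over RVC. Since *MARCKS* was chosen for 2 of these comparisons, nothing is read from its part in the counts.

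*MARCKS* and *BASP1* were under 10 CPM in S and RV and averaged 10 CPM through RVC and RVT alone, so the counts and ranks over all genes are only a backdrop to their ratios. The profile of *MARCKSL1*, at least 2-fold below S in RVC and at least 2-fold above RVC in RVT, was met by 280 genes (4.30%).

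**Figure D2:**
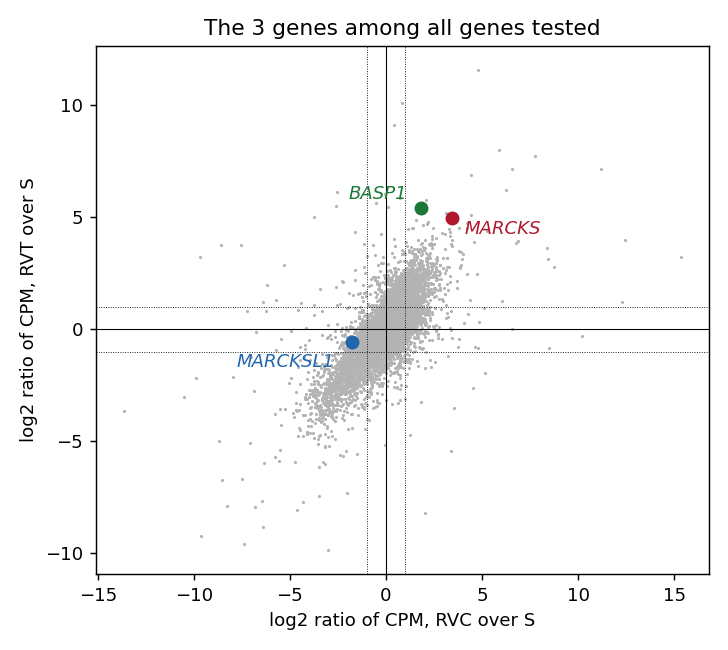
Log2 ratio of CPM to S in RVC (x axis) and RVT (y axis) for the 6510 genes tested (grey points, counts under 3 UMIs set to 3), with the 3 genes in colour and dotted lines at 2-fold. *MARCKS* lies at the upper right of the cloud, and *BASP1* near its top, at 3.55-fold above S in RVC. *MARCKSL1* lies to the left of centre, 3.45-fold lower in RVC.

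The base composition of transcript ends moved with the library ratios. Over the 6510 genes, the Spearman correlation between the GC content of the last 500 transcript bases and the log2 ratio to S was 0.01 for RV, -0.34 for RVC and -0.40 for RVT, a description across genes, which are not independent. The last 500 bases held 29.8% GC in *MARCKS*, 34.8% in *BASP1* and 44.2% in *MARCKSL1*. After subtraction of the median log2 ratio of genes with similar GC content, *MARCKS* was 8.22-fold above S in RVC and 18.9-fold in RVT, and *BASP1* 2.70-fold and 30.0-fold. *MARCKSL1* was 4.92-fold below S in RVC and 2.10-fold in RVT, a larger difference than without the subtraction. The part of base composition in these ratios was not tested.

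Cells were next compared one by one. Because RV cells were captured more deeply than RVT cells, each cell was thinned at random to 1500 UMIs, which left out 403 RVC and 848 RVT cells that were shallower. A *MARCKS* UMI was then found in 30.2% of RVT cells (29.2 to 31.2) and 12.2% of RVC cells (11.5 to 13), but in 1.36% (1.04 to 1.76) and 1.25% (0.989 to 1.55) of the RV and S cells. Without thinning, these shares were 49.3%, 28.0%, 10.4% and 6.69%. The order of the libraries was that of the summed levels, and S and RV could not be separated at this depth.

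A *BASP1* UMI was found in 27.2% of thinned RVT cells (26.2 to 28.2) and in 2.65% (2.29 to 3.04), 0.958% (0.685 to 1.30) and 0.537% (0.372 to 0.749) of those of RVC, RV and S. For *MARCKSL1*, S had 21.3% (20.3 to 22.3) and RV 19.9% (18.7 to 21.2), while RVT had 15.1% (14.3 to 15.9) and RVC 6.73% (6.17 to 7.34). Without thinning, the *BASP1* shares of RVT, RVC, RV and S were 45.3%, 6.98%, 8.04% and 3.90%, and those of *MARCKSL1* were 26.4%, 17.4%, 78.4% and 70.1%. Thinning thus turned the order of RVC and RV for *BASP1*. A single cell line offers no other cell type known to lack these genes, so free RNA has no reference level here.

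**Figure D3:**
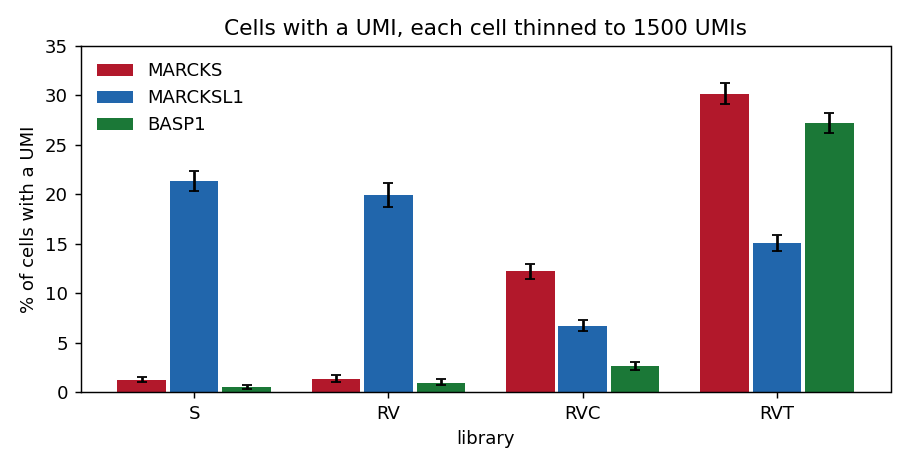
Share of cells with at least 1 UMI of each gene after thinning every cell to 1500 UMIs, as bars from 0 with 95% exact binomial intervals. *MARCKS* (30.2%) and *BASP1* (27.2%) are most often found in RVT, and *MARCKSL1* in S (21.3%) and RV (19.9%).

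Most positive cells had a single molecule. Of the thinned RVT cells, 1804 held 1 *MARCKS* UMI, 400 held 2 and 89 held 3 or more, and the mean in cells with any was 1.26 UMIs. For *BASP1* in RVT, 1689 cells held 1 UMI, 332 held 2 and 46 held 3 or more. In RVC, 811 cells held 1 *MARCKS* UMI and 5 held 3 or more.

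In RVT, *MARCKS* and *BASP1* were found together about as often as their separate shares give. Both had a UMI in 648 of 7595 thinned RVT cells, 8.53% (7.91 to 9.18), where the product of the shares is 8.22%. *MARCKS* and *MARCKSL1* were found together in 4.63% of these cells (4.17 to 5.13) against 4.56%, and *MARCKSL1* and *BASP1* in 4.13% (3.70 to 4.61) against 4.11%. All 3 intervals included the product. In RVC, *MARCKS* and *MARCKSL1* shared 76 of 7217 cells, 1.05% (0.831 to 1.32) against 0.823%, and *MARCKS* and *BASP1* shared 17 cells where the product gives 23.3. The first of these intervals lay just above the product. In S, *MARCKS* and *BASP1* shared 4 of 6334 thinned cells where the product gives 0.424, and *MARCKSL1* and *BASP1* shared 14 where it gives 7.25, and both intervals (0.0172 to 0.162% and 0.121 to 0.371%) excluded the product, on few cells. In RV, *MARCKS* and *BASP1* shared 0 of 4177 thinned cells, a count whose interval reaches 0.0883%. *MARCKSL1* and *BASP1* shared 9 RV cells where the product gives 7.97. Pearson's r across thinned cells of RVT was 0.02 for *MARCKS* and *BASP1*.

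In S, the level of *BASP1* differed sharply between cells. The S cells were split by 13 markers of a neural crest-like state (*SOX10*, *ERBB3*, *CD74* and others): 3639 cells (57.5%) had UMIs of at least 3 of them. The markers included the antigen presentation genes *CD74*, *HLA-DRA*, *HLA-DRB1*, *HLA-DRB5* and *HLA-DQA1*, and *CD74* was the highest in S, at 812 CPM. *MAJIN* and *NME9* had 0 UMIs in S, *KRT23* had 3 and *SOD3* had 9, so these could place few S cells or none. *BASP1* was at 0.878 CPM in the marker-positive S cells (0.588 to 1.26) and at 10.7 CPM in the other S cells (9.42 to 12.0), a 12.1-fold difference. The fold moved with the cut: it was 7.40 with at least 2 markers, 19.6 with at least 4 and 6.78 with at least 1 marker in thinned cells. *BASP1* had the lowest ratio of 6475 genes. These averaged at least 10 CPM over the libraries and had at least 100 UMIs in these S cells. *BASP1* and *MARCKS* reached that mean only through RVC and RVT, so this rank and the share that follows are only a backdrop. At least 2-fold lower in the marker-positive S cells were 2.12% of these genes, and *MARCKS* was among them at 5.42 against 11.1 CPM, 2.05-fold lower. *MARCKSL1* was at 152 and 158 CPM, with a ratio interval that included 1.

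The difference was graded. *BASP1* was at 16.0 CPM in the 580 S cells with none of the 13 markers, 12.8 CPM with 1, 5.32 CPM with 2, 2.00 CPM with 3, 0.772 CPM with 4 and 0.207 CPM in the 1509 S cells with 5 or more (0.0427 to 0.605, 3 UMIs). *MARCKS* was at 18.0, 11.3, 6.88, 6.33, 5.63 and 4.69 CPM in the same classes. Both genes were highest in S cells without a marker and lowest in those with 5 or more, while *MARCKSL1* stayed between 148 and 158 CPM. The median depth of the classes was 9369, 9115, 8523, 8300, 8456 and 9165 UMIs per cell, so it fell over the first 4 classes together with *BASP1* and was high again in the last class. The part of depth in this result was not tested.

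In RV, 944 cells (22.6%) had at least 3 of the markers. *BASP1* was 2.10-fold lower in them, at 4.08 against 8.58 CPM. It was 12th from the bottom of 6464 genes, of which 0.217% were at least 2-fold lower. This rank has the same limit from the minimum level as that in S. *MARCKS* was at 8.16 and 9.78 CPM, with a ratio interval that included 1, and *MARCKSL1* was 1.20-fold higher in the marker-positive RV cells, at 167 against 139 CPM. *MARCKSL1* reached 224 CPM in the 210 RV cells with 5 or more markers. Compared class by class, the ratio of RV to S for *BASP1* went in both directions: it was 4.65 in marker-positive cells (2.87 to 7.66), and in the other cells RV was 1.24-fold lower than S (1.06 to 1.46). For *MARCKSL1* the ratio was 1.10 in marker-positive cells (1.04 to 1.15) and 0.882 in the others (0.847 to 0.919). For *MARCKS* it was 1.51 (1.16 to 1.94) and 0.882 (0.755 to 1.03). By the number of markers, *BASP1* was lower in RV than in S in cells with none (10.2 against 16.0 CPM) and with 1 (8.23 against 12.8 CPM), and higher in cells with 2 (8.05 against 5.32 CPM). RV cells were deeper than S cells, at medians of 11553 and 8804 UMIs, and the classes were not matched for depth. In RVT, where 137 cells were marker-positive, the ratio interval of each gene included 1, and RVC held 4 such cells. Cells were not thinned for this split, and the median depth was 2869 UMIs in RVT and 3955 in RVC, so markers were harder to find there. Marker-positive RVT cells were deeper than the others, at medians of 3949 and 2845 UMIs. The part of depth in these values was not tested.

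**Figure D4:**
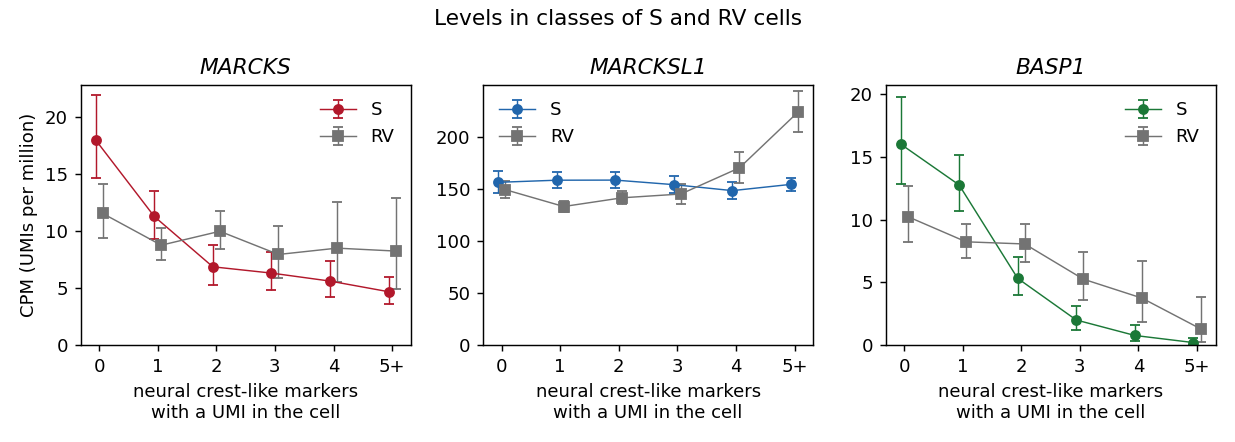
Level in CPM of each gene in S cells (coloured circles) and RV cells (grey squares), classed by how many of 13 neural crest-like markers had a UMI in the cell, with 95% Poisson intervals and axes from 0. *BASP1* falls from 16.0 to 0.207 CPM across the S classes, and *MARCKSL1* rises to 224 CPM in the last RV class.

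Cells called mitotic here had UMIs of at least 3 of 10 mitotic markers after thinning, and they differed from other cells in *MARCKS*. The label rests on these markers alone, and the cell cycle stage was not measured otherwise. In S, *MARCKS* was at 15.4 CPM in 446 mitotic cells and 7.22 CPM in the others, a ratio of 2.13 (1.63 to 2.74). In RV it was at 17.6 CPM in 400 mitotic cells and 8.45 CPM in the others, a ratio of 2.08 (1.65 to 2.60). At least 2-fold higher in mitotic cells were 2.02% of genes in S and 1.58% in RV. *MARCKS* entered the counted genes only through RVC and RVT, so these shares are only a backdrop. The ratio was 1.18 in RVC (1.07 to 1.30), and in RVT *MARCKS* was 1.29-fold lower in 300 mitotic cells, at 189 against 244 CPM. For *BASP1* the ratio interval included 1 in S (0.585 to 1.44) and in RVC (0.755 to 1.18). *BASP1* was 1.47-fold higher in mitotic RV cells (1.09 to 1.94), at 10.6 against 7.23 CPM, and 1.57-fold lower in mitotic RVT cells, at 138 against 217 CPM. There, *MARCKSL1* was 1.39-fold lower, at 77.1 against 107 CPM. Mitotic cells were deeper in each library, with medians of 10365 against 8696 UMIs in S and 4109 against 3000 UMIs in RVT.

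Levels also moved with the depth of the cell. In 4 bins of RVT cells of equal number, from the shallowest to the deepest, *MARCKS* was at 352, 271, 242 and 205 CPM and *BASP1* at 283, 243, 211 and 186 CPM. *MARCKSL1* was between 100 and 113 CPM in the same bins, but in S it was at 193, 169, 151 and 133 CPM. The bins were made within each library and are not matched in depth: the deepest RVT bin had a median of 4422 UMIs per cell and the shallowest S bin 5978. *BASP1* in S was highest in the deepest bin, at 8.55 CPM against 2.69 to 3.42 CPM in the others, as was *MARCKS* in S, at 10.1 CPM against 6.10 to 7.60 CPM. The RVC bins had *MARCKS* at 118, 102, 80.6 and 70.9 CPM and *BASP1* at 16.1, 17.2, 14.9 and 21.4 CPM. The RV bins had *MARCKS* at 8.51, 10.4, 9.04 and 9.51 CPM and *BASP1* at 5.45, 4.63, 8.16 and 9.56 CPM.

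Relatives and partners of this family, and proteins that act on it, were looked at in 11 lists with 56 genes, of which 30 averaged at least 10 CPM. In RV, 2 of the 30 were at least 2-fold higher than S and 1 was lower (6.67% and 3.33%, beside 1.87% and 1.21% of all genes). In RVC, 6 were higher and 4 lower (20% and 13.3%, beside 22.4% and 23.3%). In RVT, 14 were higher and 7 lower (46.7% and 23.3%, beside 28.4% and 24.3%). The higher count in RVT rested partly on the minimum level, which some genes reached through RVT alone: of the 24 list genes that averaged 10 CPM over S, RV and RVC, 8 were higher in RVT (33.3%, beside 22.8% of all genes so chosen). With no minimum level, 23 of 54 list genes were higher (42.6%, beside 35.9%). TMM factors gave 9 of 30 higher and 11 lower (30.0% and 36.7%, beside 16.4% and 33.5% of all genes), and subtraction of GC medians 10 and 11 (33.3% and 36.7%, beside 21.4% and 23.7%).

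Among relatives that also bind PIP2 or calmodulin at the membrane, *GAP43* did not follow *BASP1*. RVC had 30.0 CPM of it and RVT 2.40 CPM, 12.5-fold lower, where *BASP1* was higher, and S and RV had 6.16 and 2.89 CPM. *GAP43* thus averaged 10 CPM through RVC alone. *AKAP12*, which encodes a scaffold for protein kinases A and C, was at 63.3, 138, 117 and 38.1 CPM in the order S, RV, RVC, RVT, which is kept below. *AKAP12* was at least 2-fold lower than S in RVT with TMM factors and after subtraction of GC medians. *ADD3*, an adducin that caps actin filaments and is itself a protein kinase C substrate, was at 25.3, 18.8, 23.6 and 74.4 CPM. It was below 2-fold in RVT after subtraction of GC medians.

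Of 9 protein kinase C genes, *PRKCA* and *PRKCI* averaged at least 10 CPM, both through RVT alone. *PRKCA* was at 8.07, 5.92, 12.4 and 27.7 CPM, and *PRKCI*, an atypical isoform, at 8.84, 9.61, 11.1 and 19.2 CPM. Isoforms under that level went both ways: *PRKCZ* was at 7.10 CPM in S and 2.60 CPM in RVT and *PRKCD* at 2.19 and 1.02 CPM, while *PRKCH* was at 2.86 and 7.87 CPM and *PRKCQ* at 0.838 and 2.56 CPM. *PRKCB* had 0 UMIs in all libraries. The kinases ROCK1 and ROCK2, which also phosphorylate MARCKS, had their highest levels in RVT: *ROCK1* was at 19.0, 23.6, 25.5 and 42.4 CPM and *ROCK2* at 17.3, 17.1, 26.4 and 75.4 CPM. *PRKCI* and *ROCK1* were below 2-fold in RVT with TMM factors and after subtraction of GC medians.

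Of 5 catalytic subunits of the phosphatases that remove phosphate from MARCKS, *PPP2CA* and *PPP1CC* were within 2-fold of S in RVC and RVT in CPM. The others went in opposite directions. *PPP1CA* was at 161 CPM in S and 173 in RV, and at 16.8 in RVC and 10.9 in RVT. *PPP1CB* was at 43.6, 37.5, 192 and 358 CPM, and *PPP2CB* at 7.10, 5.98, 38.2 and 29.2 CPM, so *PPP2CB* averaged 10 CPM through RVC and RVT alone. The last 500 transcript bases of *PPP1CA* held 59.2% GC, and these 3 genes stayed past 2-fold in both libraries after subtraction of GC medians. *PPP1CC* was within 2-fold only in CPM: it was at least 2-fold lower in both libraries after that subtraction. With TMM factors it was at least 2-fold lower in RVT.

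Of the calmodulin genes, *CALM2* was 3.03-fold higher in RVC than in S, while *CALM3* stayed within 2-fold of S throughout. The N-myristoyltransferases that add the lipid anchor were lower in RVT: *NMT1* was 2.87-fold below S, which had 273 CPM, and *NMT2* was at 43.3, 62.2, 11.4 and 9.05 CPM. Of the kinases that make PIP2, *PIP5K1A* was 2.68-fold above S in RVT, but below 2-fold with either other scaling. *PIP5K1C* (5.02-fold), *PIP4K2B* (3.18-fold) and *PIP4K2C* (3.78-fold) were also higher there, but averaged under 10 CPM without RVT, the library where they were highest.

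Of 10 phospholipases C, which split PIP2, *PLCD3* alone averaged 10 CPM, through RVT, where it was 2.74-fold above S. *PLCG2* had 15.3 CPM in S (895 UMIs) and 0.157 CPM in RVT (4 UMIs), and *PLCB2* 2.17 CPM (127 UMIs) and 0.0394 CPM (1 UMI). *PLCG1*, at 5.27 CPM in S and 16.4 CPM in RVT, and *PLCD4*, at 0.308 and 3.31 CPM, went the other way. Of the proteases known to cut MARCKS, the calpain *CAPN1* was 3.93-fold lower in RVC and 3.20-fold lower in RVT, *CAPN2* was 2.06-fold higher in RV, and *CTSB* stayed within 2-fold of S in every library. *PHB*, which encodes the prohibitin that BASP1 recruits in the nucleus, was at 240, 239, 49.4 and 27.5 CPM. *PLCD3* in RVT was below 2-fold with TMM factors, as was *CAPN1* in both libraries after subtraction of GC medians. *CAPN2* was at least 2-fold lower than S in RVT after that subtraction. *WT1* was low in each library, with 1.01, 0.764, 4.20 and 1.30 CPM.

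**Figure D5:**
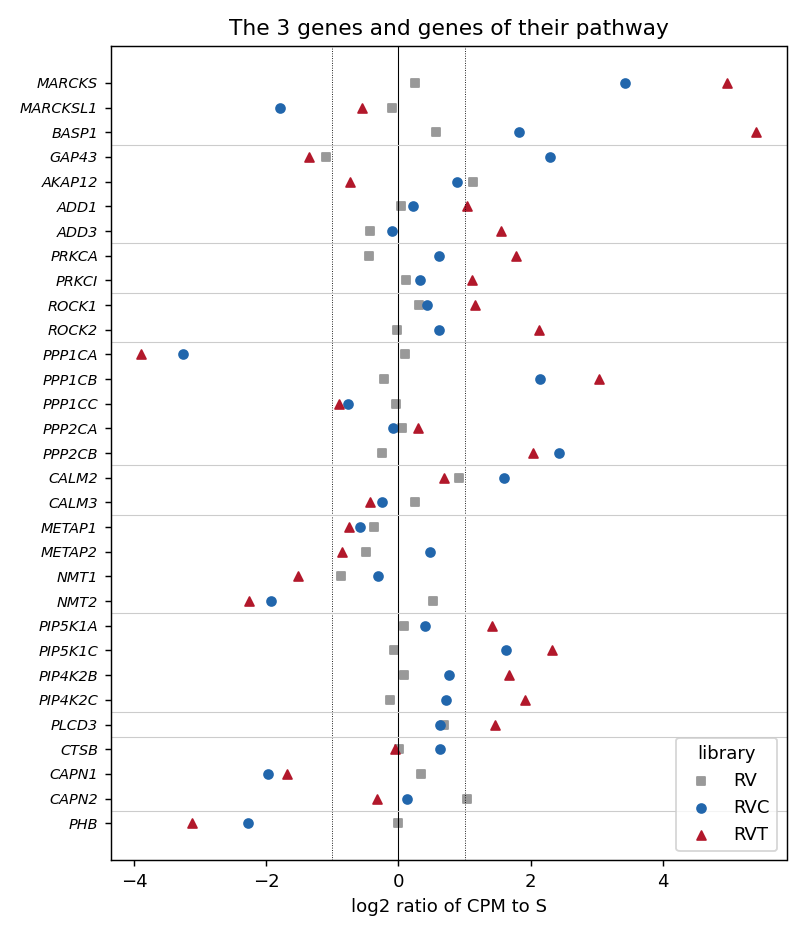
Log2 ratio of CPM to S in RV (grey squares), RVC (blue circles) and RVT (red triangles) for the 3 genes and 28 of the 30 pathway genes that averaged at least 10 CPM, grouped by list, with dotted lines at 2-fold. *MARCKS* and *BASP1* lie farther to the right than any pathway gene in RVT, and *PPP1CA* (14.8-fold lower) lies farthest to the left.

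Profiles were compared across libraries as the Euclidean distance of the 3 log2 ratios to S, over 2853 genes with at least 50 CPM in their highest library. Nearest to *MARCKS* were *SCG5* (0.50), *FOSB* (0.62), *PLEKHA2* (0.81), *FSTL1* (0.88) and *CDK2AP1* (0.91). *SCG5*, which encodes a secretory granule chaperone, was at 70.7, 115, 655 and 2337 CPM. *BASP1* was the 12th nearest gene to *MARCKS*, at 1.68, and *MARCKS* the 14th nearest to *BASP1*. *MARCKS* passed 50 CPM only in RVC and RVT, and *BASP1* only in RVT. The distances to *MARCKS* use the ratios for which it was chosen, so these ranks only describe the choice.

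Nearest to *BASP1* were *SLPI* (0.66), *ZBTB20* (0.79), *TNFRSF11B* (1.07), *AKR1C2* (1.09) and *FAM155A* (1.13). *SLPI*, a secreted protease inhibitor, was at 1.23 CPM in S and 68.1 CPM in RVT. Nearest to *MARCKSL1* were *SNX5* (0.16), *TMEM101* (0.22), *CAMLG* (0.27), *MIEN1* (0.27) and *PDCD6* (0.28), and *MARCKS* ranked 2819th of 2853. With 4 libraries these distances are descriptions, and ranking by Pearson correlation of log2 CPM kept only *CAMLG* of the 15 names.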

How the data were processed

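Single-cell RNA-seq counts of 4 A375 libraries, 1 per condition, were analysed. The deposited values are raw UMI counts per gene and cell, made by the authors with Cell Ranger after demultiplexing with bcl2fastq 2.20.0.422. The build is GRCh38, and the aligner settings and annotation release are not given in the sources used here. The RVC and RVT tables held as many barcodes as the study counts cells, and the S and RV tables held more. No column of per-sample values was left out.

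Cells with under 500 genes (0, 0, 903 and 1084 in S, RV, RVC and RVT) or over 20% mitochondrial UMIs were removed. Likely doublets, by the top scores, were then dropped at 0.8% per 1000 barcodes, with Scrublet in scanpy 1.11.5 (359, 150, 687 and 870 barcodes). UMIs were summed over cells per library and divided by the library total. With 1 library per group no test was run and no p-value is given. Ratios were computed in Python 3.11.15 with scipy 1.17.1 and TMM factors with edgeR 4.0.16. Ratios, their intervals, subtraction of GC medians and nearest profiles were tested on simulated counts. The simulated library sums took genes with at least 50 CPM in S, above *MARCKS* and *BASP1*. Cell filters, thinning, co-detection, cell splits and TMM factors were not tested in this way. Over all genes, counts under 3 UMIs were set to 3, which is 0.0513 CPM in S and 0.118 CPM in RVT. GC content and sequences came from GENCODE 29, in which 33675 identifiers were found.

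The members and gene lists were chosen with earlier results of these data known. Named were the 3 genes, list genes averaging at least 10 CPM with a 2-fold ratio, the gene that defines a list, and the 5 genes nearest in profile to each member. Exceptions named after their values were seen are *CALM3*, *CTSB*, *PPP1CC*, *PPP2CA*, *PRKCB*, *PRKCD*, *PRKCH*, *PRKCQ*, *PRKCZ*, *PLCB2*, *PLCD4*, *PLCG1*, *PLCG2*, *HLA-DRB1*, *HLA-DRB5*, *HLA-DQA1*, *MAJIN*, *NME9*, *KRT23*, *SOD3* and *AC026790.1*. A few list genes are counted but not reported here by name. Alternatives covered the cell filters, doublet removal, library scaling, cell weighting, GC content, thinning depth and the minimum level. Splits by other numbers of neural crest-like markers, and other scalings and minimum levels of the pathway counts, were added after seeing the data.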

Additional observations from a re-analysis of the deposited data

How the results depend on the processing

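Each of 12 ratios of the 3 genes was recomputed under 8 alternatives, and of the 96 values 69 stayed inside the main counting interval, 27 moved outside it and 0 changed sign. Of 64 values whose main ratio was past 2-fold, 63 stayed past it, the exception being *MARCKSL1* in RVT over RVC with TMM factors. The *MARCKS* log2 ratio of RVC to S (3.42) became 3.21 with TMM factors, 3.23 without ribosomal protein and mitochondrial genes, 3.65 with equal weight for every cell and 3.04 with GC medians subtracted. That of RVT to S (4.98) became 4.46 with TMM factors, 5.17 with equal weight and 4.24 with GC medians subtracted. TMM factors and GC medians each put 1 gene, *MARCKSL1*, at least 2-fold below S in RVT. TMM moved the median log2 ratio of all genes from 0.22 to -0.30 in RVT over S and from 0.16 to -0.06 in RVC over S.

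The log2 ratio of *BASP1* in S cells with over without neural crest-like markers (-3.60) was -2.89 with at least 2 markers, -4.29 with at least 4, and -2.76 with at least 1 marker in thinned cells. Pathway genes at least 2-fold higher in RVT than in S (14) numbered 9 with TMM factors, and those lower (7) numbered 11 with TMM factors and 11 with GC medians subtracted. In RVT over RVC, 5 of 30 were higher (16.7%, beside 15.0% of all genes), and 2 with TMM factors (6.67%, beside 8.33%). A minimum set on S, RV and RVC gave 8 of 24 higher in RVT over S (33.3%, beside 22.8%). The same minimum gave 3 of 24 higher in RVT over RVC (12.5%, beside 11.8%). Without a minimum, 13 of 54 were higher and 9 lower in RVC than in S. These were 24.1% and 16.7%, beside 26.3% and 22.0% of all genes. For RVT over S, 23 of 54 were higher and 11 lower (42.6% and 20.4%, beside 35.9% and 20.3%). For RVT over RVC, 14 of 52 were higher and 8 lower (26.9% and 15.4%, beside 25.3% and 13.6%).

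With a minimum of 1 or 50 CPM in place of 10, 12674 or 1878 genes were tested in place of 6510, and genes at least 2-fold higher than S numbered 3012 or 411 in RVC (1459) and 4320 or 333 in RVT (1852), and those lower 2827 or 539 (1515) and 2739 or 617 (1583). The counts in RV were 443 or 35 higher (122) and 408 or 21 lower (79), and in RVT over RVC 2710 or 183 higher (974) and 1533 or 329 lower (764). As shares of the genes tested, those higher than S were 23.8% or 21.9% in RVC (22.4%) and 34.1% or 17.7% in RVT (28.4%). The cause of the shift in RVT was not tested. No paired analysis was possible because each condition has 1 library. The shallower RVC and RVT cells limit what can be said of single cells, most of which held 1 UMI or none of each gene.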
